A study of Mus musculus with 19 samples.

Results

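The 10 genes described here encode NRF2 and 9 enzymes of the thioredoxin, glutathione and quinone systems: Nfe2l2, Txnrd1, Srxn1, Gsr, Gclc, Gclm, Nqo1, Prdx1, Gsta3 and Gpx1. They were chosen by symbol, and all 10 were found among the 33919 gene identifiers of the deposited table. RNA of Kupffer cells, macrophages that reside in the liver, was sequenced in 19 libraries from female C57BL/6 mice with no engineered allele named in the labels. The Chow_EmKCs group (n = 6) holds embryo-derived cells from mice on chow, and MCD_EmKCs (n = 6) are that subset from mice kept for 4 weeks on MCD, a diet without methionine and choline and a standard way to bring on steatohepatitis in mice. MCD_MoKCs (n = 7) are monocyte-derived Kupffer cells from MCD-fed mice. The design text defines EmKCs as CLEC2+ TIMD4+ and MoKCs as CLEC2+ TIMD4-, so origin rests on a surface gate and not on a lineage tracer. There is no chow group of monocyte-derived cells, the ages are not given, and the labels do not say which libraries are separate animals, so p-values measure the spread between libraries, which may be technical.

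NRF2, the product of Nfe2l2, is a transcription factor that is held low in resting cells because KEAP1 delivers it for degradation. Oxidants and electrophiles modify KEAP1, NRF2 builds up, pairs with small MAF proteins and binds antioxidant response elements in its target genes, where BACH1 competes for the same sites. The targets include enzymes that make and recycle glutathione, reduce thioredoxin and peroxides, and detoxify quinones. Macrophages make reactive oxygen species when they engulf particles and use these systems to contain them. NRF2 is controlled largely at the level of protein, which RNA sequencing does not measure.

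Promoter windows were searched for the antioxidant response element, the element that NRF2 binds. RefSeq windows of 300 bases, from 250 before to 50 after the start (GRCm38.p6), were found for 8 of the 10 genes. Gclc and Gsr had none. The antioxidant response element core was searched as TGACNNNGC on both strands, and the AP-1 element as TGACTCA, which can lie inside it. The core was present in a window of 6 of the 8 genes and in 13.991% of all 27025 genes of the table. The genes were chosen as NRF2 and its targets, so this difference is not independent of the choice and is no result of these data. TGACTCA was present in Srxn1 and Prdx1, and in 5.946% of those genes. Below are the stretches upstream of a RefSeq start, ended before any annotated exon of the gene, for Srxn1, Prdx1, Gclm, Txnrd1 and Gsta3. All are among the 6 genes with a core match, so the stretches shown favour windows with a motif. Those of Nfe2l2, Nqo1 and Gpx1 are not printed. Each runs 5′ to 3′ on the strand of its gene, and capitals mark every match of either motif, so a match on the opposite strand reads as its reverse complement.
Srxn1 (chr2:152105274-152105515, + strand): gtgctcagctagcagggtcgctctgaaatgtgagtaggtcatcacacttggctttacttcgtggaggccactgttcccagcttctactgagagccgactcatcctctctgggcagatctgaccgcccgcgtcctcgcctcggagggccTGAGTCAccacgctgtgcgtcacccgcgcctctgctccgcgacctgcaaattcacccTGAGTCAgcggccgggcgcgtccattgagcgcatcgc
Prdx1 (chr4:116685349-116685543, + strand): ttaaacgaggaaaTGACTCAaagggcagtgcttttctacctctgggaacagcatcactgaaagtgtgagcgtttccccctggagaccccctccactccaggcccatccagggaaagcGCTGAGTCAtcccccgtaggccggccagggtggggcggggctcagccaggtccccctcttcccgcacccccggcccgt
Gclm (chr3:122245307-122245556, + strand): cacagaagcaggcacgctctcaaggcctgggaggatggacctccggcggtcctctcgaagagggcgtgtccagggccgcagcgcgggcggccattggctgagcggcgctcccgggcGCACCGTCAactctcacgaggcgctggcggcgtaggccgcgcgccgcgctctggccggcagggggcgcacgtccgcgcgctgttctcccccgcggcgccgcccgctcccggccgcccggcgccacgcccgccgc
Txnrd1 (chr10:82858956-82859178, + strand): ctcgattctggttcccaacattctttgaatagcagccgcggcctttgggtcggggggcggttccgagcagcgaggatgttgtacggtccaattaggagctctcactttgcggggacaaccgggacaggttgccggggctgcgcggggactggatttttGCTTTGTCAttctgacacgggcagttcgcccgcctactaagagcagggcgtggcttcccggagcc
Gsta3 (chr1:21240335-21240584, + strand): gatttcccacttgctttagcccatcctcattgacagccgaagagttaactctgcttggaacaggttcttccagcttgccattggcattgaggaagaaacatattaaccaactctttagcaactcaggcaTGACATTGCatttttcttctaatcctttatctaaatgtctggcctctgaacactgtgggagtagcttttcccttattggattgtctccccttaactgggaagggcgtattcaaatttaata

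In Prdx1 the core match TGACTCAGC, on the opposite strand from -133 to -125 relative to the start, contains a TGACTCA, and a second TGACTCA lies on the strand of the gene from -237 to -231. In Srxn1 TGACTCA matched on the opposite strand from -102 to -96 and from -45 to -39, and the core match TGACCTAGC lies beyond the start, from 29 to 37, outside the stretch shown. Gclm holds TGACGGTGC from -134 to -126 and Txnrd1 holds TGACAAAGC from -92 to -84, both on the opposite strand. The Txnrd1 match is in 1 of its 3 windows, that of a start inside the gene, and the window at the start of the gene (chr10:82833701-82833950 upstream) held neither motif. Gsta3 holds TGACATTGC from -121 to -113 and Nfe2l2 holds TGACTCCGC from -240 to -232, both on the strand of the gene. The windows of Nqo1 and Gpx1 held neither motif. Each match describes letters in a window, not a bound site.

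**Figure D1:**
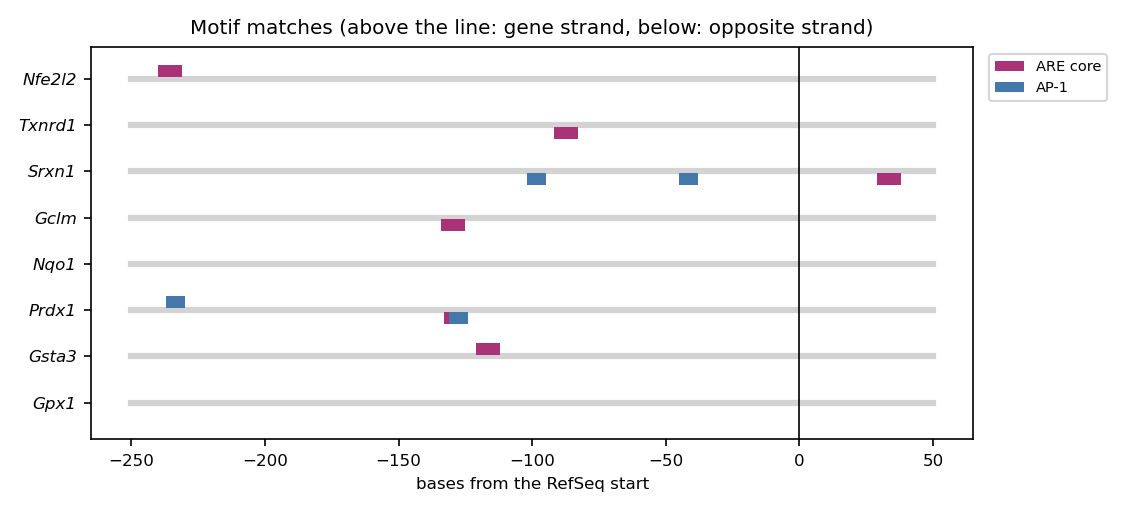
Matches of the antioxidant response element core and of the AP-1 element in the 300-base RefSeq windows of 8 genes, by distance in bases from the start; bars above each line are on the strand of the gene and bars below on the opposite strand. Nfe2l2, Txnrd1, Srxn1, Gclm, Prdx1 and Gsta3 hold a core match, and the Txnrd1 match belongs to 1 of its 3 windows.

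Between 11642240 and 30983487 reads were assigned to genes per library, with 14643 to 16847 genes detected. Values are given as normalised reads, which are the authors' reads divided by a size factor of the library. All 11 Kupffer cell and macrophage markers had reads in each group. Their sum in normalised reads spanned 566726 to 744779 for Chow_EmKCs, 509040 to 583927 for MCD_EmKCs and 290490 to 403699 for MCD_MoKCs. Abundant genes such as Clec4f carry much of this sum, and it does not show how single markers differ, for which values follow below. Mitochondrial transcripts took 0.511 to 1.05% of reads for Chow_EmKCs, 0.155 to 0.317% for MCD_EmKCs and 0.244 to 0.729% for MCD_MoKCs, where libraries 1 to 3 lay at 0.534 to 0.729% and libraries 4 to 7 at 0.244 to 0.359%. The part of this difference in the results was not tested. Scaled to transcript length, Gpx1, Prdx1, Gsr and Nfe2l2 were the 4 most abundant of the 10 genes in every group, in that order. Gpx1 was at 43394 ± 12451 normalised reads per kilobase in Chow_EmKCs (SD, n = 6) and Prdx1 at 3225 ± 757, and the libraries of these genes did not overlap in any group. Nqo1 and Gsta3 had the lowest levels per kilobase in every group. Srxn1 was the eighth in Chow_EmKCs, at 195 ± 48.1 per kilobase, the seventh in MCD_EmKCs, at 383 ± 69.4, and the fifth in MCD_MoKCs, at 1259 ± 321. There its libraries overlapped those of Nfe2l2 above it and of Txnrd1 below it.

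**Figure D2:**
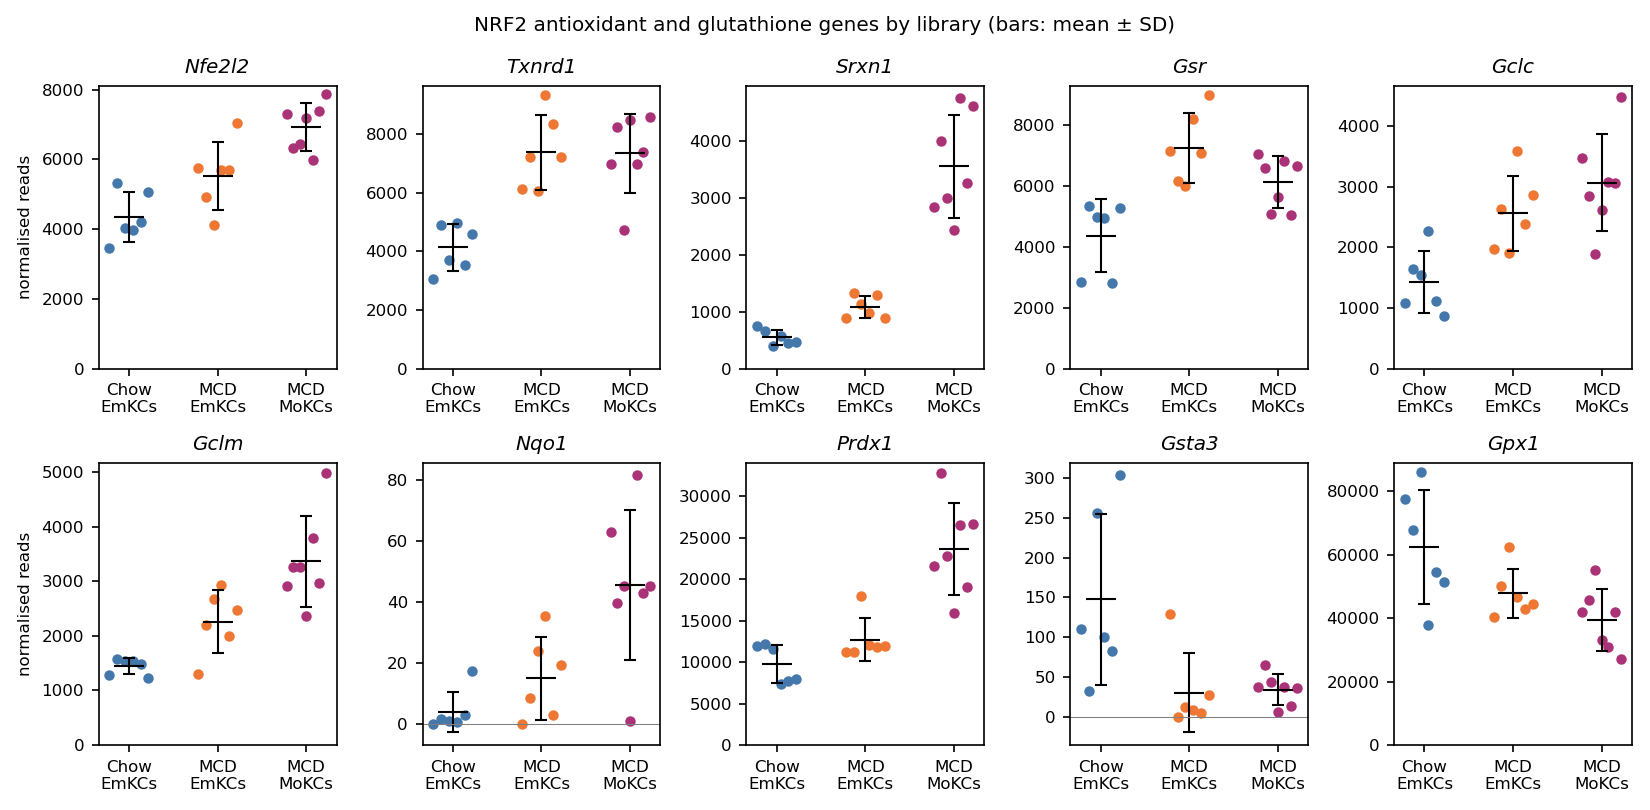
Normalised reads of the 10 genes in each of the 19 libraries (points), with the mean and SD of each group (black bars), 1 panel per gene with its own linear axis. Srxn1 is at 389 to 751 in Chow_EmKCs, 879.7 to 1319 in MCD_EmKCs and 2425 to 4743 in MCD_MoKCs, with no overlap between groups.

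The first comparison is of diet, within embryo-derived Kupffer cells. Txnrd1, Srxn1, Gsr and Gclc were higher in MCD_EmKCs than in Chow_EmKCs, Gsta3 was lower, and the other 5 genes did not pass the threshold of a limma adjusted p of 0.05. Of all 14875 genes tested, 4.08% passed in this comparison, 2.5% higher and 1.58% lower. The median log2 fold change was 0.69 over the 10 genes and -0.04 over all genes tested. All 10 genes were tested, none having been lost to the filter on low values. Nqo1 met that filter only through MCD_MoKCs, where it is highest, and not through the groups compared here. In bulk RNA such as this, fewer cells of a type and less RNA per cell cannot be told apart.

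Txnrd1, the cytosolic thioredoxin reductase (chr10:82833951-82897712, mm10), had 3059 normalised reads in the lowest Chow_EmKCs library, 4152 at the median and 4987 in the highest, against 6054, 7233 and 9337 in MCD_EmKCs. Every MCD_EmKCs library was above every Chow_EmKCs library. The group means were 4137 ± 805 and 7386 ± 1277 (SD, n = 6 and 6), a log2 fold change of 0.84 (limma adjusted p = 0.00177, SE 0.16). Srxn1, sulfiredoxin, which repairs over-oxidised peroxiredoxins (chr2:152105516-152111376), ranged from 389 to 751 normalised reads with a median of 524 in Chow_EmKCs and from 879.7 to 1319 with a median of 1057 in MCD_EmKCs. The groups did not overlap either. The log2 fold change of Srxn1 was 0.99 (limma adjusted p = 0.00319, SE 0.20). Prdx1, a peroxiredoxin that removes hydrogen peroxide (chr4:116685544-116700822), ranged from 7415 to 12131 with a median of 9799 in Chow_EmKCs and from 11261.5 to 17932 with a median of 11877 in MCD_EmKCs. Its groups overlapped and the log2 fold change of 0.39 (SE 0.17) did not pass (limma adjusted p = 0.247).

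Among the glutathione genes, Gsr, glutathione reductase (chr8:33652523-33698163), had 2801, 4957 and 5337 normalised reads in the lowest, median and highest Chow_EmKCs library and 5989, 7117 and 8981 in MCD_EmKCs. Every MCD_EmKCs library was again above every chow library, with a log2 fold change of 0.77 (limma adjusted p = 0.00719, SE 0.17). Gclc, the catalytic subunit of glutamate-cysteine ligase, the first step of glutathione synthesis (chr9:77754535-77794485), ranged from 865 to 2271 with a median of 1332 in Chow_EmKCs and from 1909 to 3590.3 with a median of 2508 in MCD_EmKCs. Here the groups overlapped, with 4 of 6 MCD_EmKCs libraries above all chow libraries. Its log2 fold was 0.89 (limma adjusted p = 0.0188, SE 0.22), and the call was lost without Chow_EmKCs 1, Chow_EmKCs 6 or MCD_EmKCs 4, at adjusted p up to 0.0581. Gclm, the modifier subunit of the same enzyme (chr3:122245557-122270732), ranged from 1235 to 1583 with a median of 1505.5 in Chow_EmKCs and from 1294 to 2928 with a median of 2330.0 in MCD_EmKCs. Of the 6 MCD_EmKCs libraries, 5 were above all chow libraries and MCD_EmKCs 1 was the low one. The log2 fold change of 0.61 (SE 0.19) missed the threshold (limma adjusted p = 0.0675), and it passed without MCD_EmKCs 1 (0.76, adjusted p = 0.0101), in edgeR (adjusted p = 0.0490) and in DESeq2 (adjusted p = 0.0257). It did not pass among library numbers up to 33 (limma adjusted p = 0.544) or from 37 (0.109). With single libraries left out, its limma adjusted p rose to as much as 0.156.

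Gpx1, the main cytosolic glutathione peroxidase (chr9:108338903-108340343), had 37757, 61167.5 and 86117 normalised reads in the lowest, median and highest Chow_EmKCs library and 40457, 45489 and 62304 in MCD_EmKCs. All MCD_EmKCs libraries lay within the chow range, and the log2 fold change was -0.35 (limma adjusted p = 0.341, SE 0.18, 95% interval -0.72 to 0.02). Nfe2l2 itself (chr2:75675513-75704641) ranged from 3450.4 to 5325 with a median of 4124.5 in Chow_EmKCs and from 4114 to 7033 with a median of 5701 in MCD_EmKCs, with overlap. Its log2 fold change of 0.34 (SE 0.14) did not pass (limma adjusted p = 0.191). Nqo1, a quinone reductase (chr8:107388225-107403206), was near the limit of detection, with 23 reads over all Chow_EmKCs libraries and 113 over all MCD_EmKCs libraries. It ranged from 0 to 17.5 normalised reads in Chow_EmKCs and from 0 to 35.5 in MCD_EmKCs, and did not pass (limma adjusted p = 0.48).

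Gsta3, an alpha-class glutathione transferase abundant in hepatocytes (chr1:21240589-21265661), went the other way. It had 32.3, 105 and 304 normalised reads in the lowest, median and highest Chow_EmKCs library and 0, 9.53 and 129 in MCD_EmKCs. In 5 of 6 MCD_EmKCs libraries it was below every chow library, and MCD_EmKCs 1, at 129, was the exception. The fitted log2 fold change was -3.38 (limma adjusted p = 0.0277, SE 0.89) and depends on the pseudocount, since MCD_EmKCs 2 had 0 reads; the group means of 147 ± 107 and 29.9 ± 49.6 stand in a ratio of 0.203. Hepatocyte markers moved in the same direction: of 18, 9 were lower in MCD_EmKCs, and their summed level was 6229 to 16469 normalised reads in Chow_EmKCs and 1229 to 5731 in MCD_EmKCs, with no marker at 0 in a whole group. Their part in the Gsta3 result was not tested. MCD_EmKCs 1, the library high in Gsta3, had a hepatocyte sum of 1233, and MCD_EmKCs 6, the library with the sum of 5731, had 27.2 normalised reads of Gsta3. The libraries highest in Gsta3, Chow_EmKCs 6 at 304 and Chow_EmKCs 3 at 256, had sums of 16469 and 12232. The Gsta3 call was lost in edgeR (log2 fold change -2.32, adjusted p = 0.188), in DESeq2 (-2.31, adjusted p = 0.0731), with only these 2 groups (adjusted p = 0.0515), within both sets of library numbers (0.387 and 0.0696) and without any one of Chow_EmKCs 1, 3 or 6 or MCD_EmKCs 2, 4 or 5 (adjusted p up to 0.0768).

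**Figure D3:**
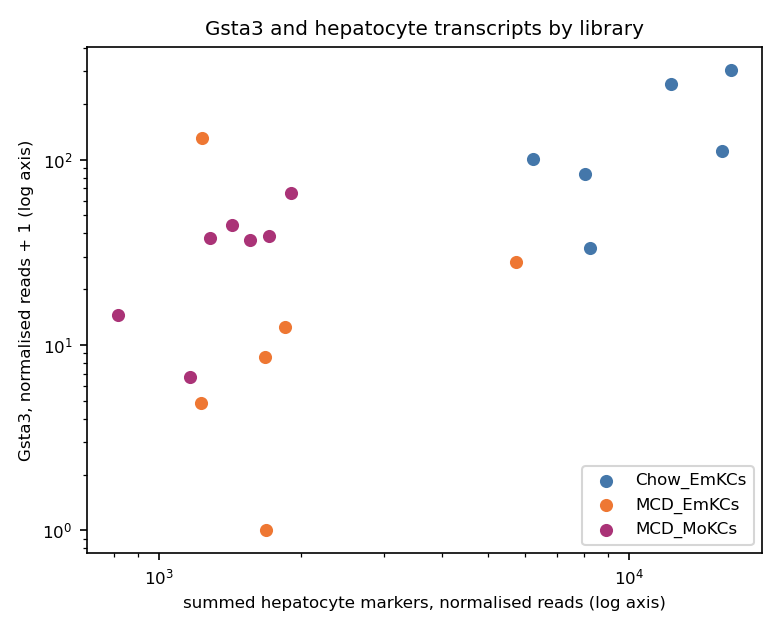
Normalised reads of Gsta3 plus 1 against the summed normalised reads of 18 hepatocyte markers in the 19 libraries, both on log axes, coloured by group. Chow_EmKCs libraries lie at hepatocyte sums of 6229 to 16469, above all libraries of the other groups, and MCD_EmKCs 1 has Gsta3 at 129 with a hepatocyte sum of 1233.

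Several measures bear on all diet calls. Of 12 genes tested that respond to cell isolation, 6 were higher in MCD_EmKCs, and their summed level was 537379 to 728727 normalised reads against 368887 to 515185 in Chow_EmKCs; their part in the results was not tested. The column names carry library numbers, which were split here into a set up to 33 and a set from 37. The labels give neither this cut nor the meaning of the numbers. All 10 genes kept their direction within both sets. The log2 fold changes of Txnrd1 were 0.76 and 0.93 in the 2 sets, those of Srxn1 0.93 and 1.05, those of Gsr 0.60 and 0.94, and those of Gclc 0.61 and 1.16. With fewer libraries, 0 and 2 of the 10 genes passed in limma within the sets. In the set with 0 calls, 4 were higher and 2 lower at an unadjusted limma p under 0.05. No share of all genes at that cutoff is given, so such counts, here and below, cannot be read as an excess. All-gene calls fell from 607 to 179 and 268. The 5 calls became 3 without Chow_EmKCs 1, without Chow_EmKCs 6 or without MCD_EmKCs 4.

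Of 90 further genes of the pathway, 83 were tested, and 6 were higher and 2 lower in MCD_EmKCs, with a median log2 fold change of -0.16. The 8 calls became 5 without Chow_EmKCs 1 and 4 without MCD_EmKCs 4. Of 12 regulators of NRF2, Maff and Sqstm1 were higher. Maff, a small MAF partner of NRF2, had 123 ± 57.1 normalised reads in Chow_EmKCs and 423 ± 105 in MCD_EmKCs, without overlap (log2 fold change 1.89, SE 0.31, limma adjusted p = 0.000334). Sqstm1, which encodes the p62 adaptor that binds KEAP1, was higher by 0.55 (SE 0.13). Keap1 and Bach1 did not pass in any comparison, with log2 fold changes here of 0.38 (SE 0.20) and 0.12 (SE 0.39). Both subunits of the cystine importer, Slc7a11 and Slc3a2, were the higher genes among 10 tested of glutathione synthesis, uptake and breakdown. Slc3a2 was higher by 0.50 (SE 0.13), while Slc7a11 had 7 reads over all Chow_EmKCs libraries and 165 over all MCD_EmKCs libraries, with means of 1.36 ± 3.34 and 24.6 ± 31.8 normalised reads and overlap (limma adjusted p = 0.0460). Slc7a11 held at most 8.17 normalised reads in Chow_EmKCs and met the filter on low values only through MCD_MoKCs, where it is high. Its diet call rests on that and is weak.

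In the remaining lists, the selenium-dependent peroxidase Gpx3 was higher (0.73, SE 0.17), and so was the aldo-keto reductase Akr1b8, at 179 ± 50.8 normalised reads against 42.8 ± 32.5. Txnip, which binds and inhibits thioredoxin, was lower, at 3689 ± 491 against 7263 ± 1514 (log2 fold change -0.96, SE 0.17, limma adjusted p = 0.000570), without overlap. Gstp1, a pi-class transferase, was lower, at a log2 fold change of -0.95 (SE 0.28); pi-class genes are close copies, so reads shared with Gstp2 make this value uncertain. None of 7 heme and iron targets, 6 genes of NADPH supply or 4 superoxide dismutases and catalase passed in limma, edgeR or DESeq2. At an unadjusted limma p under 0.05, 2 heme and iron targets were higher and 1 lower. At that cutoff 2 NADPH genes were lower and 1 gene of the third list was higher, again without a share of all genes. Hmox1, heme oxygenase, was at 14984 ± 2748 and 20695 ± 2258, with a log2 fold change of 0.48 (SE 0.14) just outside the threshold (limma adjusted p = 0.0529).

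The second comparison sets the monocyte-derived subset against the embryo-derived subset under the MCD diet. Srxn1, Prdx1 and Gclm were higher in MCD_MoKCs than in MCD_EmKCs, and the other 7 did not pass. None of the 10 was lower in limma, edgeR or DESeq2, nor at an unadjusted p under 0.05, a count of 0 in each. Of all genes tested, 10.5% passed, 5.64% higher and 4.9% lower. The median log2 fold change was 0.46 over the 10 genes and 0.02 over all genes tested. Leaving out any 1 library gave 2 to 3 calls among the 10.

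Srxn1 had 2425, 3263 and 4743 normalised reads in the lowest, median and highest MCD_MoKCs library, against 879.7, 1057 and 1319 in MCD_EmKCs. Every MCD_MoKCs library was above every MCD_EmKCs library. The means were 3550.3 ± 906 (SD, n = 7) and 1080.3 ± 196 (n = 6), a log2 fold change of 1.69 (limma adjusted p = 5.56e-07, SE 0.19, 95% interval 1.30 to 2.09), and the value was 1.59 and 1.91 within the sets of library numbers. Prdx1 ranged from 15911 to 32809 with a median of 22790.4 in MCD_MoKCs. In 6 of 7 MCD_MoKCs libraries it was above every MCD_EmKCs library, the highest of which was MCD_EmKCs 3, at 17932. Its log2 fold was 0.88 (limma adjusted p = 0.000486, SE 0.16), with 0.82 and 0.92 within the sets.

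Prdx1 has near-identical copies elsewhere in the genome, with 98.3% identity over 597 bases for Gm21399 and 97.5% over 597 bases for Gm7204. The normalised reads of Gm7204 averaged 413 ± 72.0 for Chow_EmKCs, 706 ± 311 for MCD_EmKCs and 1174 ± 509.7 for MCD_MoKCs, so reads may be split between them and the Prdx1 levels are uncertain to that extent. No other gene of the 10 had a copy of at least 90% identity over 300 bases. Gclm, the only one of the 10 whose exons overlap exons of other genes, ranged from 2372 to 4987 with a median of 3252 in MCD_MoKCs, with 5 of 7 libraries above every MCD_EmKCs library. Its log2 fold was 0.59 (limma adjusted p = 0.0357, SE 0.18). The call was lost in edgeR (adjusted p = 0.0534), with TMM factors (0.0514), with no filter (0.0524), with only these 2 groups (0.0618), within both sets of library numbers (0.132 and 0.226), and without any one of MCD_EmKCs 1, 2 or 5 or MCD_MoKCs 2, 3, 5 or 7, at adjusted p up to 0.108.

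Of the 4 genes higher in the diet comparison, Txnrd1, Gsr and Gclc did not differ detectably between the subsets, whereas Srxn1 did. Txnrd1 ranged from 4740.5 to 8605 with a median of 7398 in MCD_MoKCs, inside the span of MCD_EmKCs except for MCD_MoKCs 3, the lowest. Its log2 fold was -0.01 (limma adjusted p = 0.974, SE 0.15, 95% interval -0.33 to 0.30), a sign that turns with the libraries used. Gsr ranged from 5046 to 7051 with a median of 6596, and its fold change was -0.24 (95% interval -0.58 to 0.10, limma adjusted p = 0.413). Gclc ranged from 1892 to 4479.5 with a median of 3063 in MCD_MoKCs, and its fold change was 0.25 (95% interval -0.18 to 0.69, limma adjusted p = 0.525). These intervals do not show that the subsets are alike. Nfe2l2 ranged from 5990.0 to 7886 with a median of 7187, with a fold change of 0.34 (limma adjusted p = 0.111, SE 0.13).

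The other genes did not pass. Gpx1 had 27009, 41915 and 55251 normalised reads in the lowest, median and highest MCD_MoKCs library, overlapping MCD_EmKCs, with a log2 fold change of -0.30 (limma adjusted p = 0.307, SE 0.17). Nqo1 had 325 reads in all MCD_MoKCs libraries together and ranged from 0.949 to 81.7 normalised reads with a median of 45.4; its fold change did not pass (limma adjusted p = 0.289). Gsta3 ranged from 5.70 to 65.4 with a median of 36.6 and did not pass (limma adjusted p = 0.376). Hepatocyte markers summed to 815 to 1904 normalised reads in MCD_MoKCs.

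Markers of other cells differed between these groups. Monocyte markers summed to 7605 to 10395 normalised reads in MCD_MoKCs and 3212 to 6607 in MCD_EmKCs, where Ly6c2 was at 0. T and NK cell markers summed to 402 to 704 and 12.9 to 178, with 5 of 9 tested higher and Trac at 0 in MCD_EmKCs. Of 5 neutrophil markers tested 1 was higher, with sums of 1532 to 4784 against 1950.1 to 2838. Of 11 Kupffer cell and macrophage markers 8 were lower and 1 higher, with Clec4f at 21839 ± 4644 against 157671 ± 4769. Timd4, at 400 ± 161 against 7491 ± 720, encodes a surface protein used to gate the subsets. Its difference here and against Chow_EmKCs is therefore not independent of the sort. Of 12 isolation-response genes 2 were higher and 2 lower. Of 10 endothelial markers 4 were higher and 3 lower, with Clec4g at 1044 ± 733 against 377 ± 194 and Stab2 at 2365 ± 770.0 against 5713 ± 794. Endothelial markers summed to 3195 to 12835 in MCD_MoKCs and 9087 to 11464 in MCD_EmKCs, stellate cell markers to 283 to 1464 and 680 to 966, and B cell markers to 370 to 774 and 159 to 483. The part of these in the calls was not tested.

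**Figure D4:**
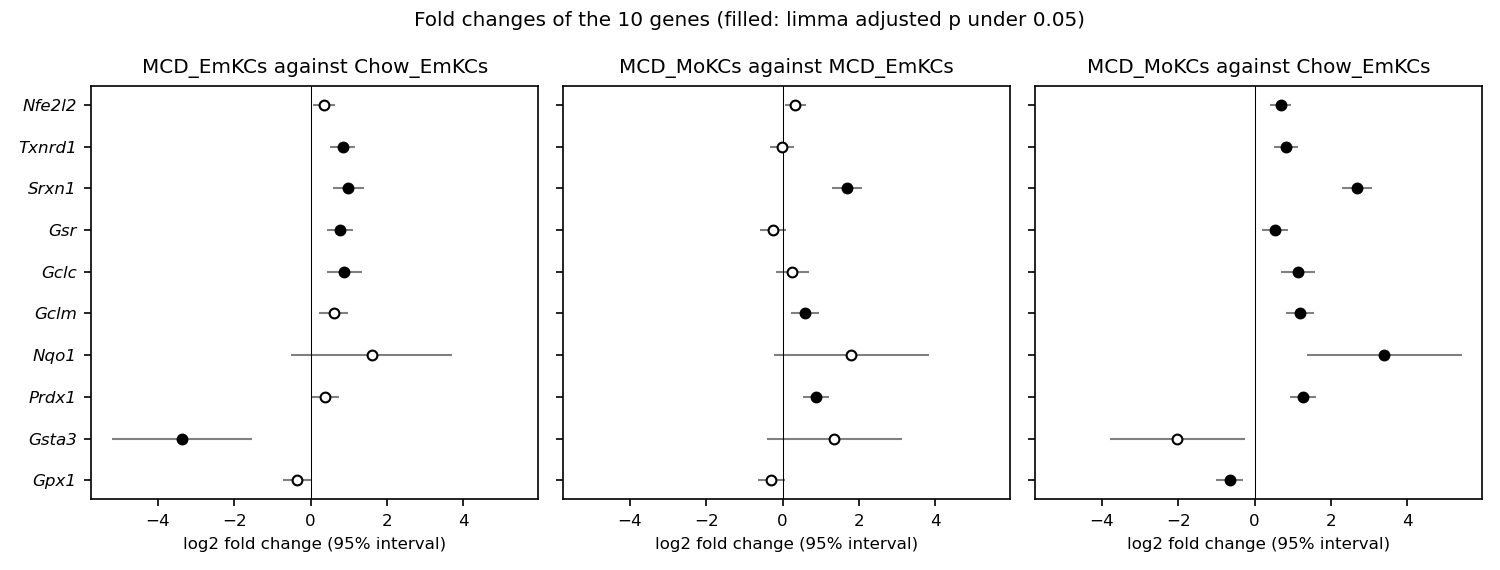
Log2 fold changes of the 10 genes with 95% intervals in the 3 comparisons, filled where limma adjusted p is under 0.05. Txnrd1, Srxn1, Gsr and Gclc are filled on the higher side in the diet comparison, and Srxn1, Gclm and Prdx1 in MCD_MoKCs against MCD_EmKCs.

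Of the 83 other pathway genes tested, 11 were higher and 7 lower in MCD_MoKCs than in MCD_EmKCs, with a median log2 fold change of 0.10. The cystine transporter Slc7a11 stood highest, at 774 to 1556 normalised reads in MCD_MoKCs and 0 to 85.7 in MCD_EmKCs, without overlap. Its means of 1096 ± 283 and 24.6 ± 31.8 stand in a ratio of 44.4 (limma adjusted p = 2.56e-06), and its fitted fold depends on the pseudocount because 1 MCD_EmKCs library had 0 reads. Slc7a11 met the filter on low values only through MCD_MoKCs. In the same list glutathione synthetase (Gss) was higher by 0.91 (SE 0.22) and glutaredoxin (Glrx) by 0.79 (SE 0.25), while Oplah, the oxoprolinase of glutathione breakdown, was lower, at a log2 fold change of -2.01 (SE 0.42). Of 6 genes of NADPH supply, Taldo1, Pgd and Me1 were higher, with log2 differences of 0.59 (SE 0.15), 0.45 (SE 0.14) and 3.43 (SE 0.97), of which edgeR called 2 and DESeq2 3. Me1 was at 5.82 ± 5.42 normalised reads in MCD_EmKCs, with 2 libraries at 0. None of 12 NRF2 regulators passed in limma or edgeR and 1 did in DESeq2, while 3 were higher and 1 lower at an unadjusted limma p under 0.05; their median log2 fold change was -0.27.

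Prdx6, a peroxiredoxin that also acts on phospholipids, was higher, at 1141 ± 248 against 274 ± 105 normalised reads without overlap (log2 fold change 2.10, SE 0.25, limma adjusted p = 1.39e-06). Txnip was lower again, at a log2 fold change of -0.87 (SE 0.16). Gstm1 was at 1681 ± 524 against 490.3 ± 139 and Gstp2 at 19.6 ± 9.91 against 111 ± 25.7, values that are uncertain because both belong to families of close copies. Ptgr1, prostaglandin reductase, was higher at 241 ± 92.3 against 19.2 ± 23.9, and mitochondrial superoxide dismutase (Sod2) by 0.62 (SE 0.17). Among detoxification genes Ephx1, an epoxide hydrolase, and Cbr1, a carbonyl reductase, were lower, with log2 differences of -1.51 (SE 0.21) and -0.57 (SE 0.19).

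The heme and iron targets of NRF2 split. The ferritin heavy chain Fth1 was higher in MCD_MoKCs, at 92834 ± 16901 against 57255 ± 7506 normalised reads. The iron exporter Slc40a1 was lower, at 26911 ± 5750.3 against 66154 ± 9151. Hmox1 was lower too, at 12345 ± 2144 against 20695 ± 2258, with no overlap (log2 fold change -0.76, SE 0.14, limma adjusted p = 0.000354). The other 4 genes of the list did not pass.

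**Figure D5:**
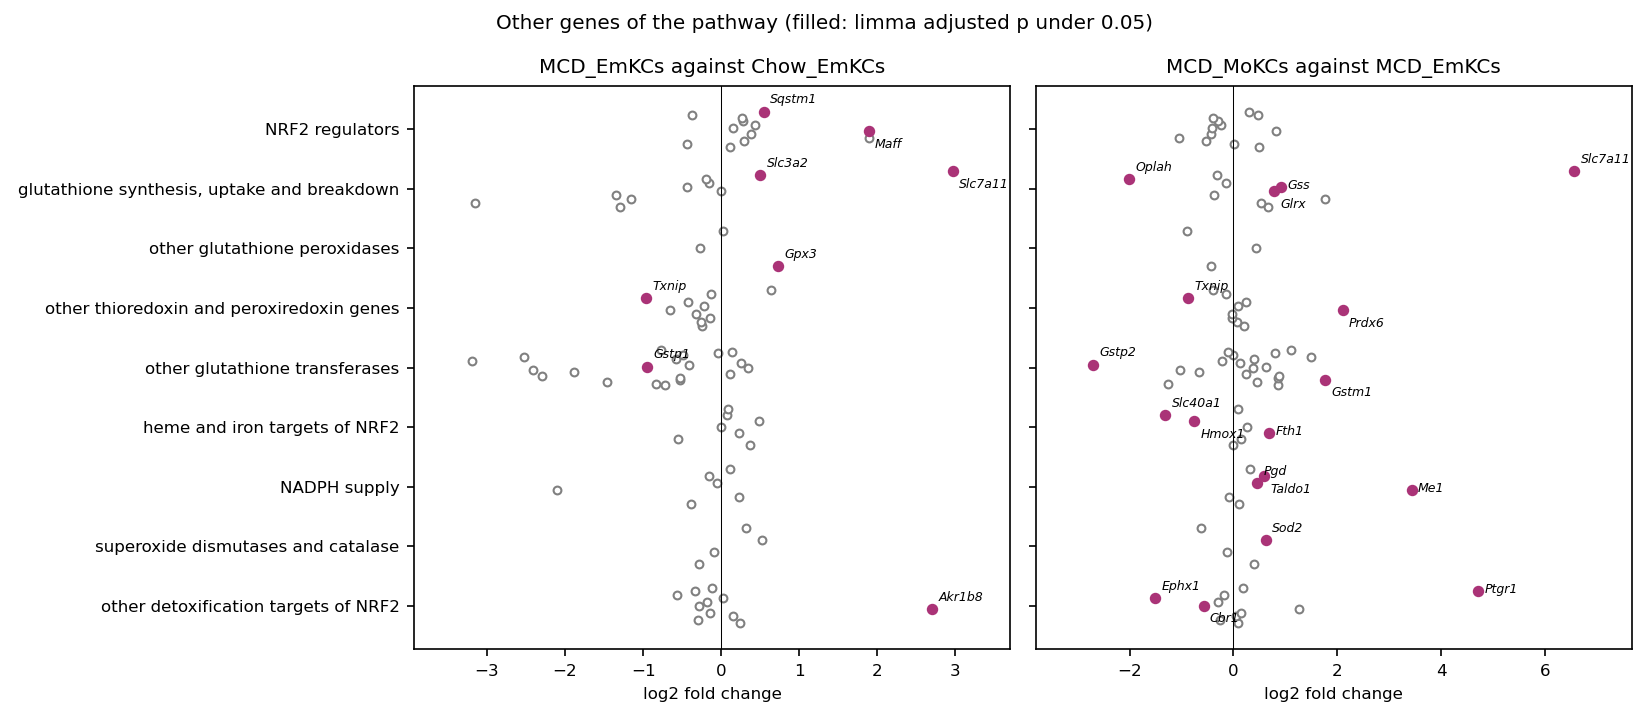
Log2 fold changes of the 83 other pathway genes tested, by list, in MCD_EmKCs against Chow_EmKCs (left) and MCD_MoKCs against MCD_EmKCs (right), filled and named where limma adjusted p is under 0.05. Slc7a11 is farthest to the right in the second panel, at 6.56, a fitted value that depends on the pseudocount.

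The third comparison sets MCD_MoKCs against Chow_EmKCs, where diet and origin differ together and cannot be told apart, and it shares its libraries with the other comparisons. Of the 10 genes 8 were higher and Gpx1 was lower, against 16.8% of all genes tested, 8.68% higher and 8.08% lower. The median log2 fold change was 0.98 over the 10 genes and -0.01 over all genes tested. Srxn1 had the smallest adjusted p, with a log2 fold change of 2.69 (limma adjusted p = 5.93e-11, SE 0.19) and a ratio of means of 6.46. Prdx1 followed, with 1.27 (limma adjusted p = 1.95e-06, SE 0.16), then Gclm with 1.19 (SE 0.18) and Txnrd1 with 0.83 (SE 0.15). Gclc was higher by 1.14 (SE 0.21). Nfe2l2 passed in this comparison, at 6935 ± 685 normalised reads (n = 7) against 4348 ± 712 (n = 6), with every MCD_MoKCs library above every chow library and a log2 fold change of 0.68 (limma adjusted p = 0.000467, SE 0.13).

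Gpx1 was at 39389 ± 9732 normalised reads in MCD_MoKCs and 62531 ± 17942 in Chow_EmKCs, with overlap and a log2 fold change of -0.65 (limma adjusted p = 0.00807, SE 0.17). Without MCD_MoKCs libraries 4 to 7, which also have the lower mitochondrial shares, it was -0.35 (adjusted p = 0.269), and among library numbers from 37 it was -0.49 (adjusted p = 0.153). The Nqo1 means were 45.7 ± 24.6 and 4.10 ± 6.65 (limma adjusted p = 0.0164), a ratio of 11.1. Nqo1 met the filter on low values only through MCD_MoKCs, the group where it is high. Its call was lost within both sets of library numbers (adjusted p = 0.112 and 0.221) and without MCD_MoKCs libraries 1 to 3 (0.131). Within the sets, 7 and 6 of the 10 genes passed. In these sets 15504 and 14704 genes were tested, and their all-gene calls are given in the last section. Gsr was higher by 0.53 (limma adjusted p = 0.0251, SE 0.16), a call lost in edgeR (adjusted p = 0.0563), within both sets of library numbers (0.127 and 0.316), without MCD_MoKCs libraries 1 to 3 (0.0945) or 4 to 7 (0.0996), and without any one of Chow_EmKCs 1, Chow_EmKCs 5 or MCD_MoKCs 1 (adjusted p up to 0.0848). Gsta3 did not pass, at a log2 fold change of -2.03 (limma adjusted p = 0.117, SE 0.86), though it did in DESeq2 (adjusted p = 0.0459), and 17 of 18 hepatocyte markers were lower in MCD_MoKCs than in Chow_EmKCs. The part of the hepatocyte markers in this value was not tested. Markers of other cells also moved with the 9 calls: 6 of 10 endothelial markers were higher and 3 lower, 4 of 5 neutrophil, 4 of 9 T and NK cell and 4 of 8 monocyte markers were higher (1 monocyte marker was lower), 4 of 12 isolation-response genes were higher, and 7 of 11 Kupffer cell and macrophage markers were lower. Their part was not tested either.

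Of the 83 other pathway genes, 14 were higher and 10 lower than in Chow_EmKCs. Slc7a11 was at 1096 ± 283 normalised reads against 1.36 ± 3.34, Prdx6 at 1141 ± 248 against 416 ± 87.1 and Fth1 at 92834 ± 16901 against 49664 ± 13069. Slc40a1 was lower, at a log2 fold change of -1.23 (SE 0.13), and Glrx higher by 0.78 (SE 0.25). Ephx1 and Cbr1 were lower as well, at -1.48 (SE 0.21) and -0.85 (SE 0.19). Maff was at 752 ± 189 normalised reads against 123 ± 57.1, and Sqstm1 was higher, at a log2 fold change of 0.84 (SE 0.13). Akr1b8 was at 453 ± 195 against 42.8 ± 32.5, Ptgr1 at 241 ± 92.3 against 17.4 ± 14.7 and Sod2 at 3077 ± 648 against 1406 ± 384. The NADPH genes Tkt, Pgd and Taldo1 were higher by 0.43 (SE 0.14), 0.41 (SE 0.14) and 0.43 (SE 0.15), while edgeR called 1 and DESeq2 2 of the 6 genes of that list, and limma called 0 within library numbers up to 33, where 1 was higher at an unadjusted p under 0.05. Of 20 glutathione transferases tested, Gstm1 and Gsto1 were higher and 4 were lower, among them Gstp2, Gstt1 and Gstm6, but edgeR and DESeq2 each called only 1 lower. Gstt1 and Gstm6 were low throughout, at 86.0 ± 58.8 and 21.3 ± 15.4 normalised reads in Chow_EmKCs and 17.5 ± 26.4 and 5.53 ± 14.6 in MCD_MoKCs. The glutathione-breakdown genes Oplah and Ggt5 were lower, with log2 differences of -2.20 (SE 0.42) and -1.72 (SE 0.40), and Txnip by -1.84 (SE 0.16).

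The genes whose profile over the 19 libraries was most like that of Nfe2l2 were found by the root-mean-square difference of centred log2 values, among 10466 genes with a mean of at least 100 normalised reads. Ehd1, an endocytic recycling protein, was nearest, with a difference of 0.17 log2 units and means of 4705 ± 572, 6875 ± 932 and 8368 ± 999 in Chow_EmKCs, MCD_EmKCs and MCD_MoKCs. The scaffold protein Iqgap1 was next at 0.19, and the third was an identifier with no symbol, at 0.20. By the same measure, of the other 7 genes compared, Gsr was the nearest to Txnrd1, at rank 14, and Srxn1 the farthest, at rank 7974. The values were centred but not scaled, so the measure counts the size of a change as well as its direction. Srxn1 rose more steeply than Txnrd1, while Gpx1, whose group means fell, ranked nearer, at 6734. Nqo1 and Gsta3 were too low to be compared. All profiles come from the same libraries, and likeness is a description.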

How the data were processed

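The authors deposited 1 table of 33919 gene identifiers in 19 libraries. Its values are a normalised read signal made by the authors. In every library 100.0% of the values were whole multiples of 1 step (tolerance 0.001 reads), and reads were recovered by dividing by that step. Per the submitters' processing notes, STAR, DESeq2 and the build mm10 were used, without versions. The tool that counted reads and its annotation were not given in the sources used here. Per the labels' protocols, collagenase D was used for digestion, a FACSAria for sorting, a QIAGEN micro kit for RNA and SMART-seq for amplification.

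The values were tested with limma 3.58.1 in R 4.3.3 on log2(value + 1) (robust estimates, variance trended on the mean) over all 19 libraries with 1 mean per group. On this scale the fold of a low gene depends on the pseudocount: it is pulled towards 0 by low values and can exceed the ratio of means where libraries hold 0 reads. Testing covered the 14875 genes that reached 10 in 6 or more libraries, two-sided, with Benjamini-Hochberg adjustment at 0.05. Some genes, such as Nqo1 and Slc7a11, met this only through MCD_MoKCs, where they are highest, so their being tested is not independent of that level. The edgeR 4.0.16 quasi-likelihood test and DESeq2 1.42.0 were run on the recovered reads as alternatives. edgeR called 554, 1325 and 2086 genes in the 3 comparisons in the order of the report and DESeq2 904, 1846 and 2588, against 607, 1568 and 2493 in limma. The scripts were tested on simulated data.

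The 10 genes, the 9 pathway lists with 90 genes and the 9 marker lists were chosen with earlier results of these data known. Of each pathway list, up to 3 genes past the threshold per direction, with the smallest p, are named, beside the 10 genes; Hmox1, Keap1 and Bach1 are also named where they did not pass, after their values were seen. Symbols came from a table of gene identifiers (29062 matched), positions from GENCODE M21 of the same build, and promoter sequences from RefSeq. Hspa1a and Hspa1b are not analysed here. The genes with the profile most like that of Txnrd1 are not reported here. Reads carry no molecular identifiers, so the spread between libraries was used for all errors. Low genes such as Nqo1 and Gsta3 rest on few reads and are the least precise.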

Additional observations from a re-analysis of the deposited data

Results flagged for a closer look

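Of 30 combinations of gene and group checked with Dixon's test for a single value far from the others, 4 stood apart, and chance alone flags about 1 in 20. Txnrd1 in MCD_MoKCs 3 was at 4740.5 normalised reads, with the other MCD_MoKCs libraries at 6970 to 8605. Nqo1 in Chow_EmKCs 6 was at 17.5, with the others at 0 to 3.12. Prdx1 in MCD_EmKCs 3 was at 17932, with the others at 11261.5 to 12111. Gsta3 in MCD_EmKCs 1 was at 129, with the others at 0 to 27.2.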

How the results depend on the processing

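Across single genes of the 10, 954 of the recomputed values kept direction and side of the threshold, 50 lost a call, 6 gained one and 6 changed sign. The 954 include genes without a call in the comparison concerned, which had none to lose, and omissions of a library outside the groups compared. The 50 losses fall on the 5, 3 and 9 calls of the 3 comparisons, so the 954 do not measure how firm those calls are. All 6 sign changes are Txnrd1 in MCD_MoKCs against MCD_EmKCs, whose -0.01 became 0.0392 with the library number set as a covariate, 0.108 among library numbers up to 33 and 0.104 without MCD_MoKCs libraries 1 to 3, and ran from -0.0677 to 0.0875 when single libraries were left out. In the sets of library numbers, up to 33 and from 37, the diet calls were 0 and 2 of the 10 genes, 2 and 5 of the other pathway genes (8 with all libraries) and 179 and 268 of all genes. In MCD_MoKCs against MCD_EmKCs the all-gene calls were 875 and 554 within these sets, and the pathway calls 9 from 37 (18 with all). Against Chow_EmKCs the pathway calls were 14 and 15 (24 with all) and the all-gene calls 1252 and 1272, of 15504 and 14704 genes tested. Without MCD_MoKCs libraries 1 to 3, a setting chosen after seeing the data, MCD_MoKCs against MCD_EmKCs gave 942 all-gene calls. Leaving out single libraries gave 3 to 6, 2 to 3 and 8 to 9 calls among the 10 genes, 4 to 8, 14 to 19 and 20 to 25 among the pathway genes, and 462 to 616, 1267 to 1578 and 2184 to 2590 among all genes, in the order of the report. The pathway diet calls fell to 5 without Chow_EmKCs 1 and to 4 without MCD_EmKCs 4. The causes of these changes, the smaller number of samples among them, were not tested. A replicate block gave 6, 2 and 8 calls among the 10 genes and 608, 1658 and 2474 among all genes. After group means were removed, same-numbered libraries correlated at -0.0743 to 0.0759 and matched their own number best in 11 of 36 checks. These checks cannot decide whether same-numbered libraries share an animal or a batch, and the labels do not say.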
